A study of Anopheles stephensi with 4 samples.

Results

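In the transcript annotation of Anopheles stephensi, 324 of 25794 assembled transcripts carried the class code p, which marks a transcript near a reference transcript that it does not overlap. These 324 regions, here called downstream transcripts, made up 1.26% of the annotation. Their levels were read in 4 tissues of adult, sugar-fed females of this mosquito, a vector of malaria: Fat body, Ovaries, Midgut and Malpighian tubules. Each tissue had 1 library run on 2 lanes as technical replicates, and the labels name no strain, allele or treatment and do not say how many females were dissected. Differences between tissues therefore rest on single libraries, and p-values were not computed.

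A gene's transcript ends where the nascent RNA is cut and given a poly(A) tail. RNA polymerase II continues past that point before it leaves the DNA, so short-lived RNA can be made beyond the annotated end. Signal past an end can also belong to a longer 3′ untranslated region than the annotation holds, or to a separate gene. Many genes use more than 1 poly(A) site, so that the end of a transcript can differ between tissues. No genome of the build was used here, so the regions are described by position and level.

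Each of the 324 lay past the end of the reference gene paired with it in the annotation, and all 324 consisted of a single exon. The class is assigned by position, so this describes the class and does not test it. Strand was assigned to 97 of the 324 regions, 31 on the plus and 66 on the minus strand, and to the other 227 none was assigned. Each was compared with the neighbouring gene, the nearest reference gene whose end faced it on its own strand, or on either strand where it had none. This choice differed from the pairing in the annotation for 17 regions. The neighbours were 322 genes, of which 52 had a single exon. Gene identifiers are given as in the annotation, because 0 of the neighbours were found in the RefSeq table of 15394 genes.

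The gap between gene end and downstream transcript had a median of 857.5 bases (quartiles 445.75 to 1319.75) and ran from 7 to 1985 bases. Only 15 regions began within 99 bases of the gene end, 78 at 100 to under 500 bases, 96 at 500 to under 1000 bases and 135 at 1000 to under 2000 bases. For 87 regions, assembled transcripts of the neighbouring gene ran beyond the reference end, and measured from there the median gap was 641 bases, with 35 regions under 100 bases. In 1 case, ANSTF.4758.1, an assembled transcript of the neighbour reached past the region itself. The regions were between 201 and 9154 bases long, with a median of 1090.5 bases. Single-exon intergenic transcripts, which are not in this class, had a median length of 651 bases, and single-exon reference transcripts 532.5 bases. Regions with a strand lay closer to the gene (median gap 563 bases) than those without (949 bases) and were of similar length (medians 974 and 1155 bases). The position of each region relative to the gene end is drawn in the layout plot.

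**Figure D1:**
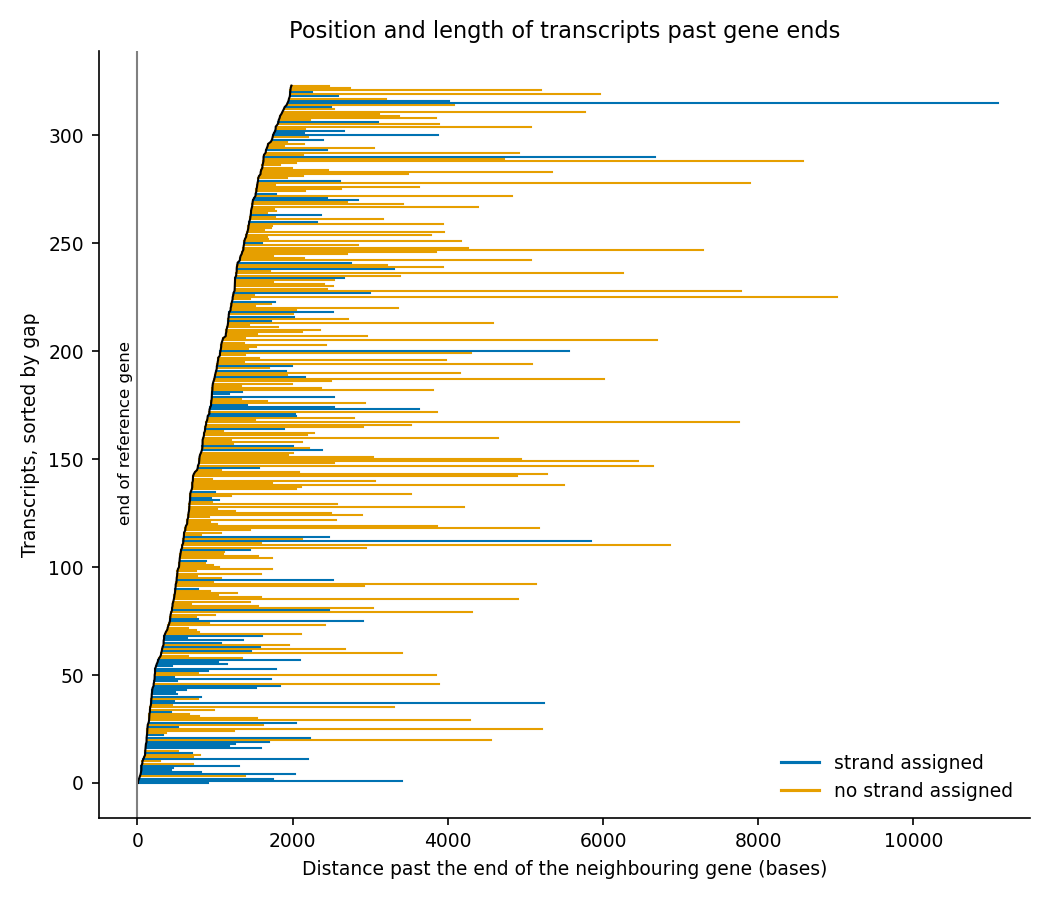
Each horizontal line is 1 of the 324 downstream transcripts, placed by its distance in bases past the end of the neighbouring reference gene (x axis) and sorted by gap (y axis, black curve), coloured by whether a strand was assigned. Gaps run from 7 to 1985 bases and lengths from 201 to 9154 bases.

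The class ends at a gap of 2000 bases, and a few values on either side of that border show what was counted. Just inside it, ANSTF.5733.1 (gap 1975 bases) stood at 4.85 (Fat body), 7.42 (Ovaries), 4.13 (Midgut) and 5.07 FPKM (Malpighian tubules). ANSTF.10032.1 (gap 1985 bases) stood at 1.79, 2.36, 0.308 and 0.582 FPKM in the same order. Just outside, the intergenic transcripts ANSTF.7781.1 (2007 bases past an end) and ANSTF.2436.1 (2017 bases) reached 2.72 and 1.41 FPKM in Fat body, 0.453 and 1.14 FPKM in Ovaries, 0.631 and 0.697 FPKM in Midgut, and were at 0 and 1.24 FPKM in Malpighian tubules. FPKM here are fragment numbers relative to transcript length and library size, scaled between libraries by the authors. They were not in plain proportion to fragments per base. In Fat body ANSTF.1484.1 (287 bases) stood at 59.0 FPKM on 241 estimated fragments, and ANSTF.29.1 (1555 bases) at 55.1 FPKM on 2583. Levels of short regions, and their ratios to longer genes, carry this limit.

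Most downstream transcripts were present at low levels, and the share detected was above that of all transcripts in each tissue. At 1 FPKM or more, 255 of the 324 were detected in Fat body (78.7%, 95% Wilson interval 73.9 to 82.8), against 57.6% of all 25785 transcripts with values. In Ovaries 215 were detected (66.4%, 61.0 to 71.3; all transcripts 57.8%), in Midgut 199 (61.4%, 56.0 to 66.6; all transcripts 52.7%) and in Malpighian tubules 224 (69.1%, 63.9 to 73.9; all transcripts 58.0%). These intervals cover counting error over regions only. Of the 322 neighbours, 69.6% were detected in Fat body, 66.8% in Ovaries, 63.4% in Midgut and 68.6% in Malpighian tubules. For single-exon intergenic transcripts the shares were 59.0%, 57.7%, 52.3% and 61.4%. The regions come from assembled reads, whereas reference genes are listed even at 0, so these shares are not like for like. The median level of the regions was 3.69 FPKM in Fat body, followed by Malpighian tubules (2.79 FPKM), Midgut (2.06 FPKM) and Ovaries (2.03 FPKM). Single-exon intergenic transcripts had medians of 1.44, 1.60, 1.17 and 1.32 FPKM in these tissues. The order of tissues depends on scaling. Giving all 4 tissues an equal total over transcripts (TPM) shifts every log2 level by 0.10 in Fat body, 1.14 in Ovaries, -0.35 in Midgut and 0.73 in Malpighian tubules. The medians then became 3.94 TPM in Fat body, 4.49 TPM in Ovaries, 1.62 TPM in Midgut and 4.62 TPM in Malpighian tubules.

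In all 4 tissues together 307 regions reached 1 FPKM at least once (94.8%), against 19648 of all 25785 transcripts. Of these, 154 did so in all 4 tissues, 47 in 3, 30 in 2 and 76 in 1. Those of 1 tissue were found in Fat body in 38 cases, in Ovaries in 21, in Midgut in 10 and in Malpighian tubules in 7. These counts hold for deposited FPKM, and the same split is not given for all transcripts. Without that split, the higher count in Fat body cannot be read as a trait of these regions. At 1 TPM or more, 257 regions were detected in Fat body, 251 in Ovaries, 187 in Midgut and 242 in Malpighian tubules. The depth of the regions varied widely, since those detected had a median of 168 estimated fragments in Fat body, 248 in Ovaries, 75.03 in Midgut and 206 in Malpighian tubules. The smallest number of fragments behind a value of 1 FPKM or more was 1.002 in Midgut and 2.85 in Fat body. When 20 fragments were required as well, 228, 199, 163 and 204 regions remained, so that the lowest count stayed in Midgut. The libraries themselves were of similar size, between 27489968 (Midgut) and 36317588 (Malpighian tubules) estimated fragments.

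The most abundant downstream transcript in Fat body, Midgut and Malpighian tubules, though not in Ovaries, was ANSTF.5658.1 (scaffold_00036, 503982 to 504384, minus strand, 403 bases). It lay 51 bases past the end of ASTEI06074 and stood at 595 FPKM in Fat body (authors' bounds 535 to 655), 114 FPKM in Ovaries (95.4 to 132), 630 FPKM in Midgut (567 to 693) and 495 FPKM in Malpighian tubules (444 to 545). Its neighbour was low, at 4.63, 5.90, 4.93 and 4.42 FPKM, values whose closeness depends on scaling. The downstream transcript was thus 129 times the level of the gene in Fat body and 19.3 times in Ovaries, and its low value in Ovaries had no counterpart in the gene. With TPM, its highest tissue was Malpighian tubules and no longer Midgut.

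Downstream transcripts also stood next to genes without signal. The neighbour was below 1 FPKM in every tissue for 75 regions, and 72 of these regions were themselves detected. This is near the share over all regions, 307 of 324 (94.8%). In 22 of the 72 the neighbour was listed at 0 in all 4 tissues. Regions beside such low genes reached a median highest level of 3.40 FPKM, against 7.86 FPKM beside detected genes, and 19 of them exceeded 10 FPKM in at least 1 tissue. The share of low genes among the neighbours, 23.0%, was near the 27.7% among all reference genes. In 14 further cases the gene was detected and the region was not.

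ANSTF.9001.1 (scaffold_00102, 171613 to 171987, minus strand), an example chosen after its values were seen, lay 678 bases past ASTEI09739, which was listed at 0 throughout. The region stood at 114 (Fat body), 52.2 (Ovaries), 254 (Midgut) and 154 FPKM (Malpighian tubules). On its other side, 127 bases away, was the start of ASTEI09738, at 152, 40.9, 331 and 188 FPKM. The order of tissues was the same in the region and in this gene.

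Levels of downstream transcripts and neighbours were next compared within each tissue, where the ratio of their FPKM does not depend on how libraries were scaled. Among pairs with both at 1 FPKM or more, the median region stood at 0.808 of its gene in Fat body (quartiles 0.258 to 1.87, 181 pairs). It stood at 0.510 in Ovaries (0.245 to 1.08, 166 pairs), 0.632 in Midgut (0.205 to 1.32, 157 pairs) and 0.757 in Malpighian tubules (0.303 to 1.81, 174 pairs). The Fat body median was not fixed: its log2 value was -0.31 (interval of the median over pairs -0.76 to 0.17), and it was 0.35 without the filter and 0.00 against fully matching transcripts only. In Malpighian tubules it was -0.40, and 0.056 without the filter. With both at 1 FPKM or more, intergenic transcripts 2000 to under 10000 bases past an end had medians of 0.422, 0.305, 0.398 and 0.528. The order is Fat body, Ovaries, Midgut and Malpighian tubules. Adjacent reference genes on 1 strand, second to first, had medians of 0.881, 1.03, 0.922 and 0.909. In the scatter of levels the points lay on both sides of equality over a wide range.

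**Figure D2:**
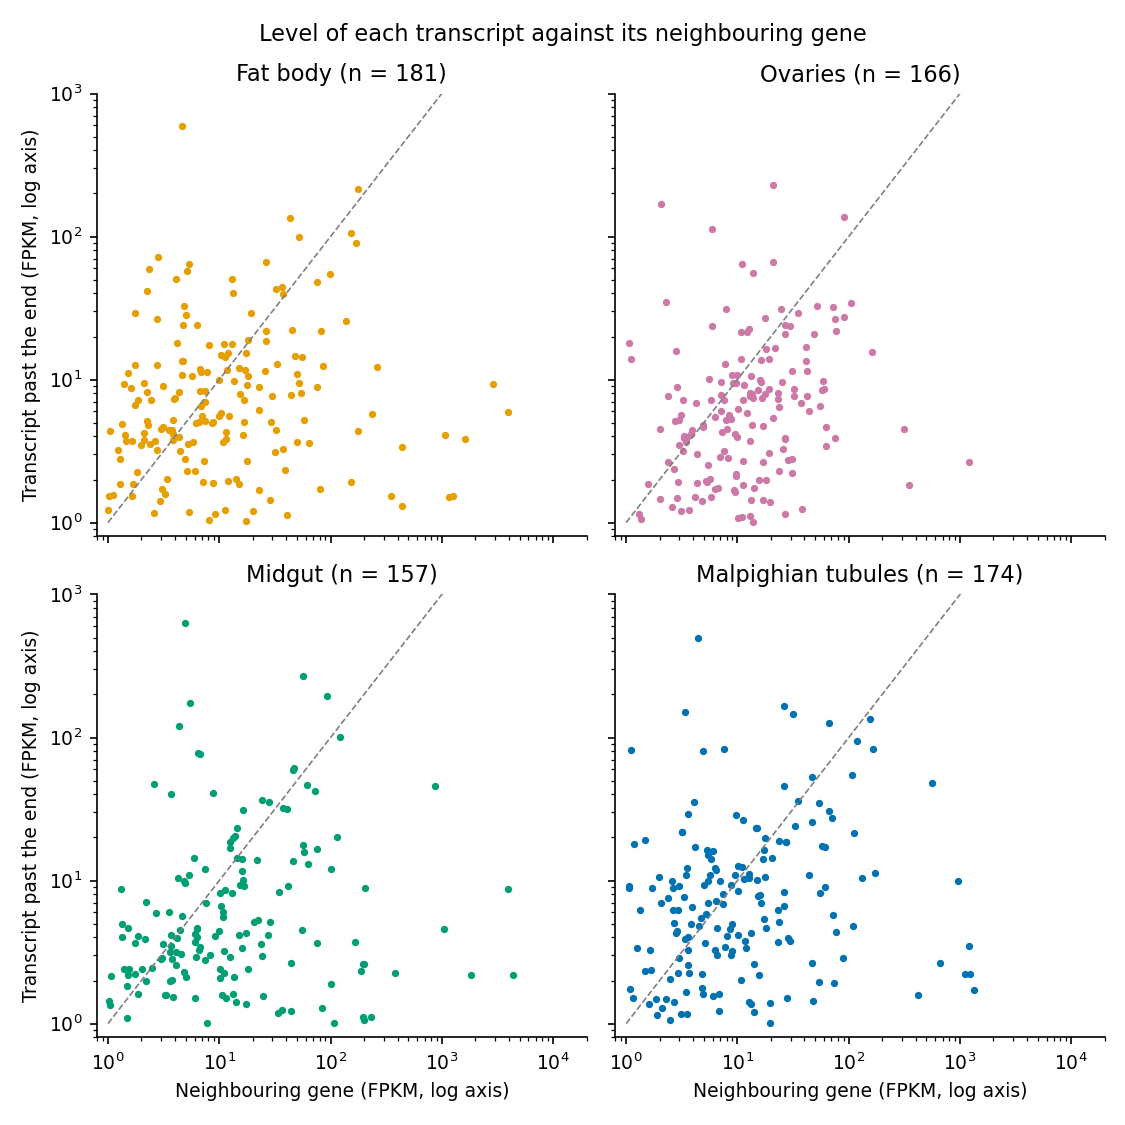
FPKM of each downstream transcript (y axis, log) against that of its neighbouring gene (x axis, log), 1 panel per tissue, for pairs with both at 1 FPKM or more. Dashed lines mark equal levels, and points lie on both sides of it in every tissue, with 181, 166, 157 and 174 pairs.

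Many downstream transcripts stood at a higher FPKM than the gene before them. In Fat body 157 of the 255 detected regions exceeded their neighbour (61.6%), in Ovaries 93 of 215 (43.3%), in Midgut 92 of 199 (46.2%) and in Malpighian tubules 121 of 224 (54.0%). For scale, in adjacent reference genes on 1 strand less than 2000 bases apart, the second gene, where detected, exceeded the first in 60.5% of cases in Fat body, 63.3% in Ovaries, 62.0% in Midgut and 60.2% in Malpighian tubules. All these counts include genes below 1 FPKM as the exceeded gene. With both at 1 FPKM or more, the region was higher in 83 of 181 pairs in Fat body and 44 of 166 in Ovaries. It was higher in 50 of 157 in Midgut and 71 of 174 in Malpighian tubules. By the same filter the second adjacent gene was higher in 424 of 875, 404 of 795, 373 of 766 and 387 of 818 pairs. Of the 118 pairs with both at 1 FPKM or more in every tissue, the region was above the gene in all tissues in 22, in none in 54 and in some in 42. Across pairs, levels of region and gene were weakly related, with Spearman's correlations of 0.16 in Fat body, 0.30 in Ovaries, 0.19 in Midgut and 0.21 in Malpighian tubules. These correlations are across regions that share a library and are not independent replicates. The same measure between a region and the gene on its other side, at any distance, was 0.09, 0.30, 0.01 and 0.12. Between adjacent reference genes it was 0.15, 0.14, 0.10 and 0.15.

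Besides ANSTF.5658.1, the named regions with the highest ratio to an expressed gene were ANSTF.8066.1 and ANSTF.10776.1. ANSTF.8066.1 (scaffold_00074, 250314 to 251089, minus strand) lay 45 bases past ASTEI08735 and stood at 50.1 (Fat body), 21.4 (Ovaries), 174 (Midgut) and 150 FPKM (Malpighian tubules). ASTEI08735 stood at 4.07, 10.75, 5.44 and 3.36 FPKM, with its highest level in the tissue where the region was lowest. The gene on the other side of ANSTF.8066.1, ASTEI08734, ended 635 bases away. It stood at 25.8, 22.7, 98.2 and 75.5 FPKM, an order shared with the region in deposited FPKM. Levels of the gene on the other side are given for some named regions only, by no fixed rule. They do not describe the other regions that departed from their neighbour.

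ANSTF.10776.1 (scaffold_01780, 1 to 1020, minus strand), 338 bases past ASTEI11384, began at the first base of its scaffold. Its levels were 64.4 (Fat body), 64.1 (Ovaries), 78.1 (Midgut) and 83.3 FPKM (Malpighian tubules), values whose closeness depends on scaling. The gene stood at 5.39, 11.01, 6.47 and 7.60 FPKM. In total 7 regions began within 10 bases of a scaffold start, and 33 had no reference gene on their other side on the same scaffold. How much of such regions is missing from the assembly cannot be told from these positions.

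Across tissues, the level ratio of downstream transcripts to their genes was most often lowest in Ovaries. Of the 118 pairs at 1 FPKM or more everywhere, the ratio was lowest in Ovaries in 82 (69.5%, 95% Wilson interval 60.7 to 77.1), in Midgut in 18, in Fat body in 9 and in Malpighian tubules in 9. It was highest in Fat body in 49, in Malpighian tubules in 28, in Midgut in 22 and in Ovaries in 19. In these 118 pairs the median region stood at 0.924 of its gene in Fat body, 0.794 in Malpighian tubules, 0.745 in Midgut and 0.457 in Ovaries. The log2 ratio in Ovaries lay a median of 0.78 below the mean of the other tissues (-0.78).

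The same count was made in other pairs. In adjacent reference genes on 1 strand, the ratio of the second gene to the first was lowest in Ovaries in 36.1% of 624 pairs and about as often highest there (222 pairs, against 225 lowest). Single-exon intergenic transcripts less than 2000 bases before a gene start had 32% of 25 pairs lowest in Ovaries. For single-exon intergenic transcripts 2000 to under 10000 bases past an end the figure was 50.8% of 65 pairs. For downstream transcripts and the gene on their other side it was 54.5% of 88 pairs at any distance and 36.8% of 38 pairs under 2000 bases, against 27 of 44 (61.4%) for the own neighbour of the latter regions. The median Ovaries log2 ratio minus the mean of the other tissues was -0.61 for these intergenic transcripts past an end. For the gene on the other side it was -0.55 at any distance. Under 2000 bases it was -0.10, against -0.54 for the own neighbour of those regions. It was -0.09 for intergenic transcripts before a start and 0.04 in adjacent reference genes. These shares and differences come from the same libraries and were not tested against each other. The ratio was lowest in Ovaries for most regions with a strand (36 of 51) and without (46 of 67), and at gaps of 100 to under 500 bases (21 of 31), 500 to under 1000 bases (24 of 35) and 1000 to under 2000 bases (33 of 47). By length it was 19 of 32 in regions under 500 bases, 29 of 44 at 500 to under 1500 bases and 34 of 42 at 1500 bases or more. The ratio plot shows the shift.

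**Figure D3:**
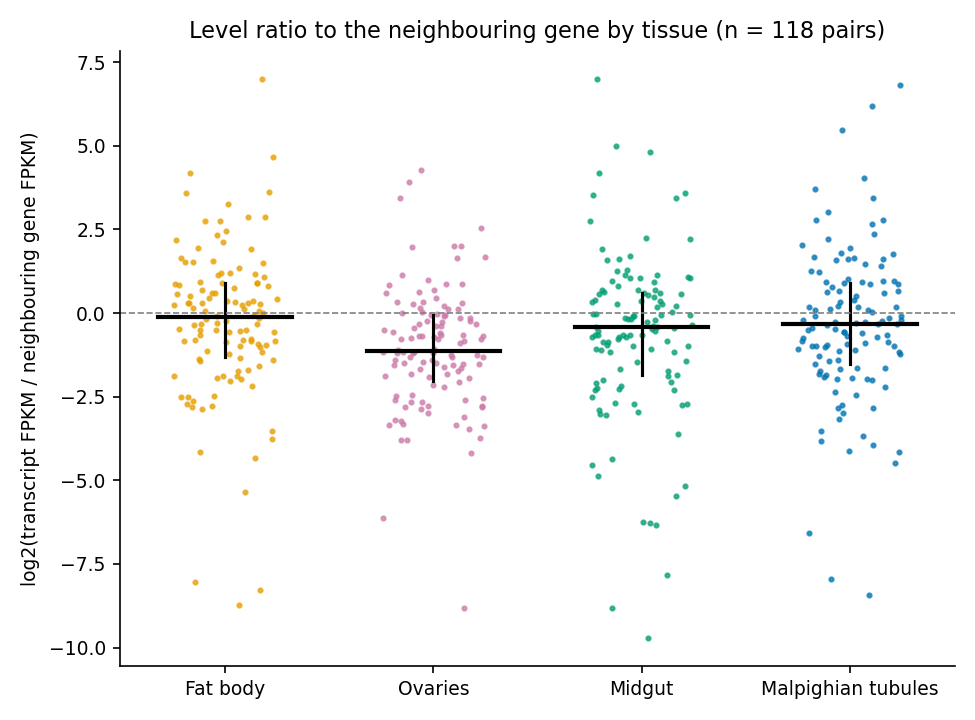
log2 of downstream transcript FPKM over neighbouring gene FPKM (y axis) in each tissue for the 118 pairs at 1 FPKM or more everywhere. Points are pairs, thick bars medians and thin bars quartiles. The median is lowest in Ovaries, at -1.13, against -0.11 in Fat body, -0.42 in Midgut and -0.33 in Malpighian tubules.

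Tissue patterns of region and gene were then set side by side by the spread of the log2 ratio, its maximum minus its minimum over the 4 tissues. A spread of 0 means that region and gene keep the same proportion in every tissue, and the scaling of libraries cancels in it. The median spread was 1.67 (interval of the median over pairs 1.35 to 1.88, quartiles 0.97 to 2.26, 118 pairs). In 30 of the 118 pairs (25.4%) it was below 1, that is under a factor of 2 across tissues. Adjacent reference genes had a median of 2.18 (1.99 to 2.35), and 17.6% were below 1. For intergenic transcripts 2000 to under 10000 bases past an end the median was 2.20 (12.3% below 1), and for those before a start it was 1.90 (20% below 1). For downstream transcripts and the gene on their other side it was 2.21 (1.90 to 2.62), and 18.2% were below 1. These differences were not tested. The gene on the other side was taken at any distance here (median gap 3015 bases), whereas the neighbour always lay under 2000 bases away. Where the other gene also lay under 2000 bases away, the median spread to it was 1.62 (38 pairs, 1.06 to 2.47), with 31.6% below 1. For the own neighbour of the same regions it was 1.81 (44 pairs, 1.28 to 2.21), with 25% below 1. Region by region, the spread was smaller to the neighbour in 38 of 70 cases at any distance and in 10 of 30 under 2000 bases. At matched distance the intervals overlapped.

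**Figure D4:**
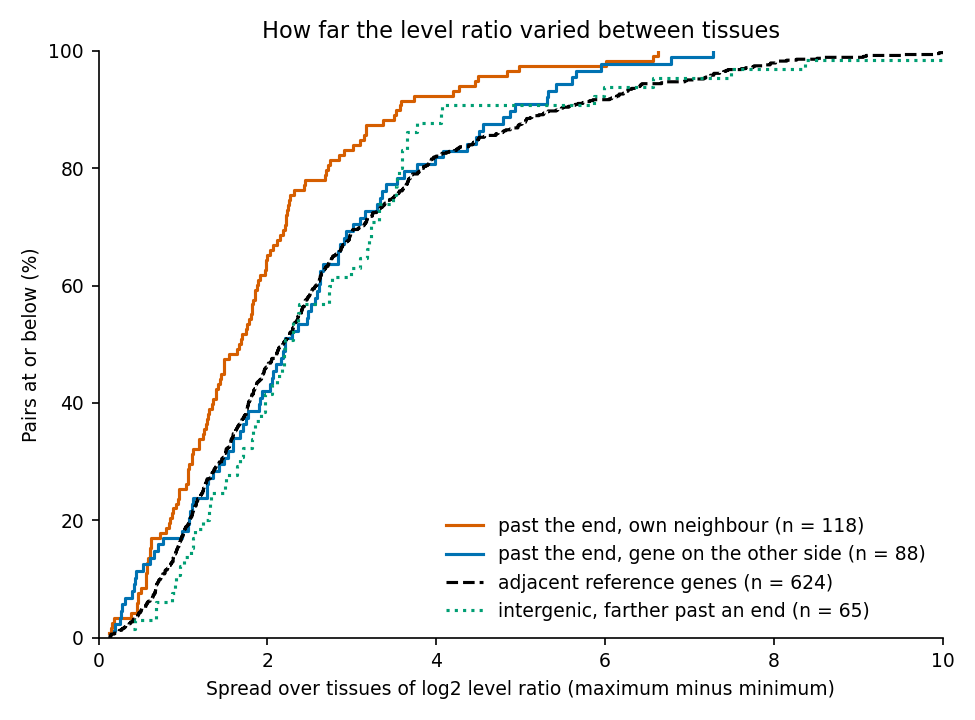
Cumulative share of pairs (y axis, percent) by the spread over tissues of the log2 level ratio (x axis). Downstream transcripts with their own neighbour (118 pairs, median 1.67) run above the gene on the other side at any distance (88 pairs, 2.21), adjacent reference genes (624 pairs, 2.18) and intergenic transcripts farther past an end (65 pairs, 2.20).

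The spread did not shrink with the gap. Its median was 1.44 at 100 to under 500 bases (31 pairs), 1.66 at 500 to under 1000 bases (35 pairs) and 1.7 at 1000 to under 2000 bases (47 pairs), with intervals that overlapped, and only 5 pairs were under 100 bases. Regions with a strand had a median of 1.66 and those without 1.68. By length the medians were 1.43 under 500 bases, 1.34 at 500 to under 1500 bases and 1.89 at 1500 bases or more, with intervals of 0.94 to 2.18, 1.03 to 1.78 and 1.63 to 2.24. With both at 5 FPKM or more in every tissue, 29 pairs had a median spread of 1.05.

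In a cruder measure that also takes in regions absent from some tissues, region and gene had the same highest tissue in 123 of 235 pairs (52.3%, 95% Wilson interval 46.0 to 58.6). In adjacent reference genes this was so in 41.7% of 1026 pairs, in regions and the gene on their other side at any distance in 37.0% of 216, and in intergenic transcripts in 39.6% past an end and 36.8% before a start. For other genes under 2000 bases away it was so in 41 of 82 pairs (50%), close to the 40 of 78 (51.3%) for the own neighbour of the same regions. The share depends on scaling, and with TPM it was 62.6% (159 of 254 pairs), against 50.6% of adjacent reference genes. Where the highest tissue was at least 1.5 times the next in both, 70 of 98 pairs shared it (71.4%), against 51.1% of 395 adjacent reference pairs. By length, the same highest tissue was found in 46 of 71 pairs under 500 bases (64.8%, 53.2 to 74.9), 43 of 83 at 500 to under 1500 bases (51.8%, 41.2 to 62.2) and 34 of 81 at 1500 bases or more (42.0%, 31.8 to 52.9).

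With deposited FPKM the disagreements were uneven over tissues. Of 31 genes highest in Malpighian tubules, 25 had a region highest there too, and of 45 genes highest in Fat body, 30. Among the same pairs, 66 regions were highest in Malpighian tubules, 65 in Ovaries, 63 in Fat body and 41 in Midgut. Shared counts depend on these totals, and no such split is given for adjacent reference genes. Of 94 genes highest in Ovaries, 42 had such a region, while 22 of their regions were highest in Malpighian tubules and 18 in Fat body. Of 65 genes highest in Midgut, 26 had a region highest there. With TPM, 85 pairs were highest in Ovaries for both and 7 in Midgut for both, so that these counts hold for deposited FPKM only.

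Pairs that kept their proportion included regions at quite different gaps. ANSTF.9468.1 (scaffold_00120, 51078 to 52051, minus strand) lay 1023 bases past the reference end of ASTEI10240 and 51 bases past its assembled end. It stood at 48.0 (Fat body), 7.93 (Ovaries), 42.2 (Midgut) and 34.6 FPKM (Malpighian tubules). ASTEI10240 stood at 74.8, 13.6, 72.4 and 54.2 FPKM, so that the region held between 0.581 and 0.642 of the gene in every tissue, a spread of 0.14.

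ANSTF.6496.3 (scaffold_00047, 206740 to 207893, minus strand, gap 312 bases) held between 0.269 and 0.300 of ASTEI07013, at 22.0, 21.8, 15.8 and 17.4 FPKM against 81.7, 76.6, 58.0 and 57.9 FPKM. ANSTF.4795.1 (scaffold_00028, 1796300 to 1796913, no strand, gap 898 bases) followed ASTEI05146 at 0.771 to 0.871 of its level. Both were highest in Malpighian tubules, the region at 94.5 FPKM and the gene at 119 FPKM, and the other tissues lay between 20.7 and 32.3 FPKM for the region and 26.1 and 37.1 FPKM for the gene. ANSTF.7192.1 (scaffold_00058, 547558 to 549678, minus strand, 2121 bases), 75 bases past ASTEI07779, was the second most abundant region in Fat body. It stood at 215 FPKM there (209 to 222), 23.8 FPKM in Ovaries, 101 FPKM in Midgut and 135 FPKM in the tubules, against 175, 29.6, 121 and 155 FPKM for the gene. All 4 of these regions were at their genes' level or below it in every tissue, apart from ANSTF.7192.1 in Fat body, at 1.23 of the gene.

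Other well-covered regions did not follow their gene. ANSTF.10154.1 (scaffold_00187, 71262 to 73279, no strand, gap 400 bases) had the largest spread among pairs at 5 FPKM or more everywhere, 3.50. It stood at 42.9 (Fat body), 16.9 (Ovaries), 58.9 (Midgut) and 146 FPKM (Malpighian tubules). ASTEI10921, a gene of 1 exon, stood at 32.3, 41.7, 46.3 and 31.7 FPKM, closer together in deposited FPKM. ANSTF.10267.1 (scaffold_00245, 1 to 2497, no strand, gap 1438 bases) stood at 50.6, 9.55, 36.7 and 23.2 FPKM, against 13.0, 25.4, 24.1 and 14.6 FPKM for ASTEI11012, a spread of 3.37. ANSTF.9645.1 (scaffold_00131, 79600 to 81730, minus strand, gap 1748 bases) stood at 17.5, 16.5, 9.23 and 28.8 FPKM, against 8.01, 21.7, 16.7 and 9.65 FPKM for ASTEI10433, a spread of 2.43. In all 3 pairs the gene was below the region in Fat body and in Malpighian tubules and above it in Ovaries.

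**Figure D5:**
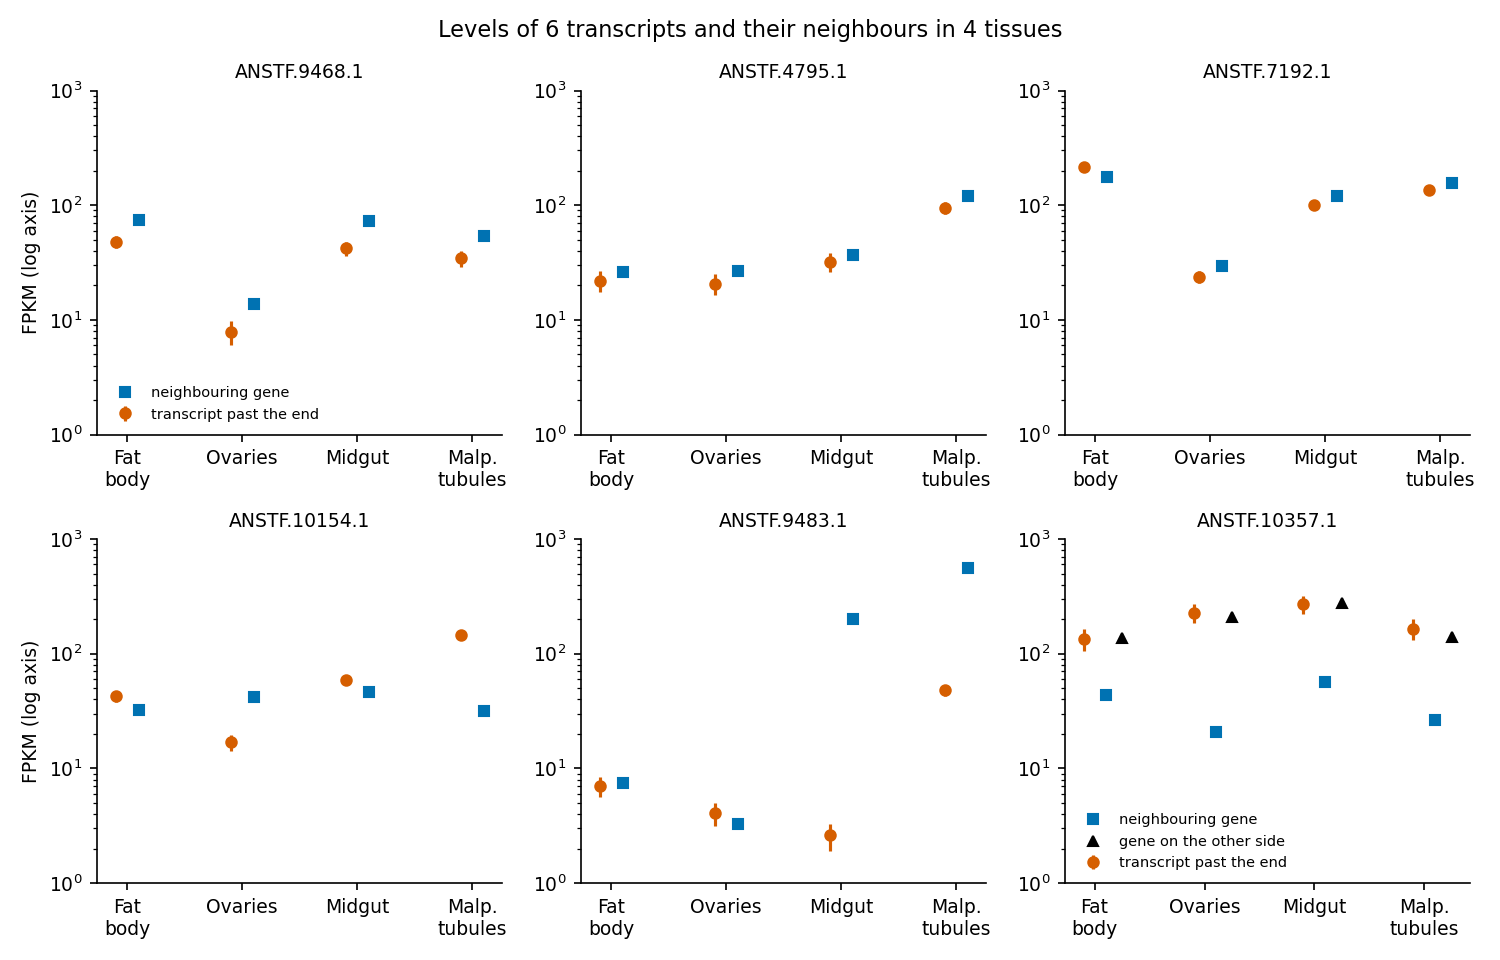
FPKM (y axis, log) in the 4 tissues of 6 downstream transcripts (circles, with the authors' bounds) and their neighbouring genes (squares). In the upper row both keep their proportion, with spreads of 0.14, 0.18 and 0.62. In the lower row they do not, and the levels of ANSTF.10357.1 lie at those of the gene on its other side (triangles).

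A small group of downstream transcripts abutted another gene on the opposite strand. On the side away from the neighbour, 291 regions had a reference gene, which faced the region with its end in 161 cases and with its start in 130. For 8 regions, all with a strand, that gene lay less than 100 bases away, and for 7 of them at most 3 bases. In all 8 it faced the region with its end and lay on the opposite strand. These 8 were singled out after their values were seen.

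ANSTF.10357.1 (scaffold_00339, 10247 to 10466, plus strand, 220 bases) lay 2 bases from the end of ASTEI11087. It was the most abundant region in Ovaries, at 228 FPKM (186 to 270), with 135 FPKM in Fat body, 270 FPKM in Midgut and 166 FPKM in the tubules. ASTEI11087 stood at 209 FPKM in Ovaries, 137 FPKM in Fat body, 278 FPKM in Midgut and 141 FPKM in the tubules, a spread of 0.27. Its same-strand neighbour ASTEI11086, 960 bases away, stood at 21.0, 43.4, 56.4 and 26.4 FPKM in that order, a spread of 1.8. The region had the levels of the abutting gene and not those of the gene it is classed under.

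ANSTF.7416.1 (scaffold_00061, 864859 to 866362, minus strand) touched the end of ASTEI08048 with 0 bases between. It stood at 71.9 (Fat body), 34.8 (Ovaries), 121 (Midgut) and 81.2 FPKM (Malpighian tubules), against 67.7, 53.2, 135 and 84.0 FPKM for that gene and 2.81, 2.29, 4.33 and 1.12 FPKM for its neighbour ASTEI08049. ANSTF.1983.1 (scaffold_00008, 164857 to 165151, plus strand), 1 base from ASTEI02063, stood at 17.7, 8.49, 20.1 and 7.69 FPKM and at a near-constant 0.565 to 0.640 of that gene. Of the 8 regions, 6 had both flanking genes at 1 FPKM or more everywhere, and in 6 of 6 the spread was smaller to the abutting gene (median 0.57) than to the neighbour (median 1.99). Spreads to the abutting gene ran from 0.18 to 1.48 over 7 regions. The eighth, ANSTF.9151.1, went otherwise. It was at 0.0031 FPKM in Fat body and listed at 0 in Ovaries, where the abutting ASTEI09904 stood at 7.95 and 7.71 FPKM. In Midgut and the tubules it reached 5.16 and 3.72 FPKM, against 3.09 and 1.95 FPKM for ASTEI09904. These were also the tissues in which its same-strand neighbour ASTEI09903 was highest, at 28.7 and 23.0 FPKM, with 13.4 FPKM in Fat body and 3.53 FPKM in Ovaries. Strand-specific preparation is not stated in the labels, and without it reads from opposite strands cannot be told apart.

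More widely, 110 regions had a gene on the other side less than 2000 bases away. Where this gene faced the region with its end, the median spread to it was 1.10 (25 pairs, interval 0.70 to 2.18) and the highest tissue was shared in 29 of 51 pairs. Where it faced the region with its start, the median spread was 2.03 (13 pairs, 0.76 to 4.78) and the highest tissue was shared in 12 of 31. In the 20 cases with a second end nearby and all values present, the spread was smaller to the neighbour in 5. These 20 include the abutting regions above.

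Tissue enrichment was called where FPKM + 1 of the highest tissue reached 5 times the value of the next tissue or more. It was met by 25 downstream transcripts, 12 in Fat body (3.91% of all transcripts detected in any tissue met it there), 5 in Ovaries (2.21%), 4 in Midgut (2.75%) and 4 in Malpighian tubules (1.73%). As a share of the 307 detected regions this is 8.14%, near the 10.6% of all detected transcripts and the 6.46% of single-exon intergenic transcripts, so the count is not a result about these regions. With TPM the numbers were 12, 11, 3 and 8, and 24 of the 25 were called under both scalings. The neighbour was itself enriched in the same tissue for 4 of the 12 in Fat body, 2 of the 5 in Ovaries, 3 of the 4 in Midgut and 2 of the 4 in Malpighian tubules. Over all regions, 13 neighbours were enriched in Fat body, 4 in Ovaries, 8 in Midgut and 3 in Malpighian tubules. For 7 of the 25 the neighbour was below 1 FPKM everywhere, as it was for 72 of the 307 detected regions.

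In Fat body, ANSTF.10669.1 (scaffold_01283, 2 to 431, minus strand, gap 190 bases) stood at 106 FPKM, against 8.45 FPKM in Ovaries, 13.0 FPKM in Midgut and 11.0 FPKM in the tubules. Its neighbour ASTEI11316 was also highest in Fat body, at 152 FPKM, with 58.0, 62.8 and 44.1 FPKM elsewhere, so that the region was the more restricted of the pair. ANSTF.4926.1 (scaffold_00029, 1989615 to 1990064, no strand, gap 1079 bases) stood at 89.6, 8.11, 4.43 and 7.85 FPKM, and ASTEI05291 at 170, 23.4, 9.995 and 15.2 FPKM. Here both had the same order, with a spread of 0.60.

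In Ovaries, ANSTF.10634.1 (scaffold_01130, 2756 to 3270, no strand, gap 411 bases) stood at 168 FPKM (149 to 187), with 29.2 FPKM in Fat body, 3.20 FPKM in Midgut and 16.9 FPKM in the tubules. ASTEI11292 went the other way, with its highest level, 11.0 FPKM, in Midgut, and 1.74 FPKM in Fat body, 2.07 FPKM in Ovaries and 0.415 FPKM in Malpighian tubules. ANSTF.7364.1 (scaffold_00060, 900554 to 900780, plus strand, gap 1376 bases) stood at 66.8 FPKM in Ovaries on 266 estimated fragments, against 10.55, 2.81 and 12.2 FPKM in Fat body, Midgut and Malpighian tubules. Its neighbour ASTEI07980 was highest in the same tissue, at 20.8 FPKM, with 5.64, 2.97 and 3.51 FPKM in the others.

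In Midgut, ANSTF.8251.1 (scaffold_00079, 356859 to 357092, no strand, gap 869 bases) stood at 143 FPKM (115 to 172), against 12.2 FPKM in Fat body, 2.30 FPKM in Ovaries and 8.40 FPKM in Malpighian tubules. Its neighbour ASTEI08934, a gene of 13 exons, was listed at 0 in Midgut and stayed below 0.1 FPKM elsewhere. ANSTF.1750.1 (scaffold_00006, 3079504 to 3079797, no strand) lay 1386 bases past ASTEI01823. It stood at 45.6 FPKM in Midgut, 1.68 FPKM in Fat body and 1.94 FPKM in Malpighian tubules and was listed at 0 in Ovaries. ASTEI01823 was also highest in Midgut, at 867 FPKM, with 54.5 FPKM in Malpighian tubules, 22.9 FPKM in Fat body and 5.33 FPKM in Ovaries. The region held 0.0526 of the gene in Midgut. Elsewhere the region rested on 11 estimated fragments in Malpighian tubules and 7 in Fat body, too few to rank those tissues. The annotation pairs this region with the convergent gene ASTEI01822, 1961 bases away. That gene stood at 11.2, 7.19, 4.96 and 8.84 FPKM in Fat body, Ovaries, Midgut and Malpighian tubules, and was lowest in Midgut.

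In Malpighian tubules, ANSTF.8787.1 (scaffold_00095, 28199 to 33803, no strand, 5605 bases, gap 1096 bases) stood at 55.9 FPKM (50.5 to 61.2), against 3.50, 6.88 and 2.68 FPKM in Fat body, Ovaries and Midgut. Its neighbour ASTEI09509 stayed below 1 FPKM in all 4 tissues. ANSTF.9483.1 (scaffold_00120, 360080 to 362018, no strand, gap 1481 bases) stood at 48.3 FPKM, with 7.02, 4.05 and 2.61 FPKM in the same order of the other tissues. ASTEI10252, a gene of 20 exons, reached 559 FPKM in Malpighian tubules and 202 FPKM in Midgut, with 7.49 FPKM in Fat body and 3.31 FPKM in Ovaries. Both were highest in Malpighian tubules, but the region held 0.0864 of the gene there and 0.0129 in Midgut, against 0.938 in Fat body and 1.23 in Ovaries. The spread of 6.57 was among the largest of the 118 pairs, which reached 6.63.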

How the data were processed

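The submitters' processing notes name CASAVA 1.8, HISAT2, StringTie 1.2.1 and Cuffdiff; the genome build is not given in the sources used here. Per the file headers, the authors deposited FPKM with bounds for 25785 transcripts, scaled between libraries (column sums from 452542 in Ovaries to 1272696 in Midgut), and counts that are not whole and so were read as a signal. That signal is built from 2 step sizes per tissue, and dividing the deposited signal by their mean gave estimated fragments. Class codes, positions and exons came from the deposited annotation (scaffold coordinates, 1-based).

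A gene's level is the sum over transcripts that match it, share a junction, overlap its exons or lie in it on its strand. Ratios, spreads and shares were computed with Python 3.11.15, pandas 2.3.3 and scipy 1.17.1, and checked on simulated data. With 1 library per tissue nothing was tested. Intervals are 95% Wilson or, for medians, order-statistic intervals over regions; both cover counting error only. Regions named by rule are the 2 most abundant and the 2 most abundant enriched per tissue. To these come 3 each with the highest ratio, smallest and largest spread at 5 FPKM. No spliced region existed. Named outside this rule were ANSTF.4758.1, the regions at the class border, ANSTF.9001.1, ANSTF.7416.1, ANSTF.1983.1 and ANSTF.9151.1. Members and measures were chosen with earlier results of these data known, and the count of the tissue with the lowest ratio after seeing these values.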

Additional observations from a re-analysis of the deposited data

How the results depend on the processing

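Of 83 recomputed values, 51 moved by less than the limits set for them. Requiring 5 FPKM left 128 detected regions in Fat body, 105 in Ovaries, 88 in Midgut and 121 in Malpighian tubules, and 82, 49, 54 and 80 above their gene. With no filter and a pseudocount of 0.1, the median log2 ratio changed sign to 0.35 in Fat body and 0.056 in Malpighian tubules and was -0.47 in Ovaries and -0.16 in Midgut. Against fully matching transcripts only, it changed sign to 0.0036 in Fat body. The cause was not tested.

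Enriched regions numbered 21 in Fat body, 10 in Ovaries and 7 in Midgut at a ratio of 3. At a ratio of 10 they numbered 4, 0, 2 and, in Malpighian tubules, 0. With a pseudocount of 0.1 they numbered 31 in Fat body, 10 in Ovaries and 8 in Midgut, and with TPM 11 in Ovaries and 8 in Malpighian tubules. The median spread was 1.05 at 5 FPKM, over 29 pairs. The same highest tissue was found in 62.6% of pairs with TPM, 59.8% at 5 FPKM and 71.4% where it was at least 1.5 times the next. For adjacent reference genes it was 50.6% with TPM and 51.1% at that margin. From assembled ends the median gap was 641 bases. The share with the lowest ratio in Ovaries stayed between 64.4% and 75.9% under 5 alternatives, chosen after seeing the data.

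No paired analysis was possible because each tissue had 1 library; the same design allows no leaving out of a library. Low levels rest on few fragments, most of all in Midgut, and a region at 0 is listed at 0 rather than shown to be absent.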
